A study of Mus musculus with 16 samples.

Results

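Major histocompatibility complex (MHC) class I and immunoproteasome genes were followed through early T cell development in the thymus. The set was given by symbol: the class I heavy chain genes H2-K1, H2-D1 and H2-T23, the light chain gene B2m, the peptide transporter and loading genes Tap1, Tap2 and Tapbp, and the immunoproteasome genes Psmb8, Psmb9 and Psmb10. For each symbol the brightest probe set on the array was taken. Of these 10 symbols, 7 had a probe set of their own, out of 19531 genes that had one. H2-K1, H2-D1 and H2-T23 were named only by probe sets that list several symbols, so they are reported as 3 shared probe sets (of 25108 on the array) under the names H2-D1/H2-K1, H2-K1/H2-D1 and H2-T23/H2-T-ps. A value of a shared probe set cannot be given to either gene alone.

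The arrays covered 16 samples from mice aged 4 weeks, in 8 groups of 2 arrays. B6g7 mice are C57BL/6 animals with the H2g7 MHC haplotype of NOD, the strain that develops autoimmune diabetes, so both strains carry the same class I heavy chain alleles. B2m and Psmb10 lie on other chromosomes, outside this haplotype. Non-Tg mice have a polyclonal T cell receptor repertoire, and BDC mice carry the BDC2.5 TCR tg, the rearranged receptor of a CD4 T cell clone that recognises islets. After complement had removed CD4 and CD8 cells, lineage-negative thymocytes were sorted as DN2-3 (CD25+) or DN4 (CD44- CD25-), the stages before and after pre-TCR selection. The groups are thus B6g7, NOD, BDC/B6g7 and BDC/NOD, each at DN2-3 and DN4. All non-Tg arrays came from females, and each BDC group had 1 male and 1 female array, so sex and genotype overlap in part. The labels do not name the promoter of the transgene, nor say that samples in a group are from different mice, and p-values therefore measure only the spread between these samples.

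Class I molecules present peptides from inside the cell to CD8 T cells and to NK cell receptors. Peptides are cut by the proteasome, pumped into the endoplasmic reticulum by the transporter made of Tap1 and Tap2, and loaded onto a heavy chain paired with B2m at a complex held together by tapasin, the product of Tapbp. The immunoproteasome is a form of the proteasome in which Psmb8, Psmb9 and Psmb10 replace the constitutive catalytic subunits Psmb5, Psmb6 and Psmb7. Interferons raise the whole set, and the transactivator Nlrc5 acts on class I promoters through an enhanceosome that includes the Y box. Class I levels are low on immature thymocytes and rise with maturation.

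By gene order in the RefSeq annotation of GRCm38.p6, 8 of the 10 genes lie on chromosome 17, with B2m on chromosome 2 and Psmb10 on chromosome 8. Psmb9, Tap1, Psmb8 and Tap2 are consecutive protein-coding genes there. Tap1 and Psmb9 start back to back, 225 bases apart, and the stretch between their starts is shown because the levels of these neighbours moved apart in the data below. It is given on the plus strand (chr17:34187331-34187555), with Psmb9 leaving to the left and Tap1 to the right, and capitals mark its Y box (CCAAT on either strand).
Tap1-Psmb9: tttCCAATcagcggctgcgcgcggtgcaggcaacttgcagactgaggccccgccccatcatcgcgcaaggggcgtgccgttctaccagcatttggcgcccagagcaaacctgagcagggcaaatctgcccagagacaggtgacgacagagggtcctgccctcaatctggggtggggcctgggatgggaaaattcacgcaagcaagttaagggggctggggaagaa

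The promoters of H2-K1 and H2-D1, which share probe sets, are alike in sequence. The transcripts that the probes read were not compared. Their kappaB stretches of 30 bases, from chr17:34000430-34000459 (minus strand) and chr17:35262922-35262951 (plus strand), were identical at 29 of 30 bases. Capitals mark the kappaB match.
H2-K1: tGGGGATTCCCCatctccacagtttcactt
H2-D1: tGGGGATTCCCCatctcctcagtttcactt
Aligned at this stretch without gaps, 166 of 190 bases before the starts were identical (87.4%). The reference is that of C57BL/6J, not the H2g7 haplotype of these mice.

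The B2m promoter is shown because it alone among the member promoters matched the patterns searched for 3 elements together. These were the interferon-stimulated response element (ISRE), kappaB and the Y box. B2m passed no comparison of BDC with non-Tg cells. The 250 bases before its start (chr2:122147437-122147686, plus strand) hold, in capitals from left to right, the ISRE, kappaB and Y box matches.
B2m: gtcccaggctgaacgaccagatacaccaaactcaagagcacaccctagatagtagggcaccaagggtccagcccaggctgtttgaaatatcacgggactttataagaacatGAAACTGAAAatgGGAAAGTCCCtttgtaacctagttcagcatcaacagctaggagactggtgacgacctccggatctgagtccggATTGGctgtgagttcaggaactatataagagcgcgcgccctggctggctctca
RefSeq promoters, from 250 bases before to 50 after a start, were matched for 9 of the 10 genes. On either strand, the Y box (CCAAT) was in 7 of the 9, against 37.9% of 27025 promoters. Tap1 and Psmb9 hold the same Y box match, in the stretch between their starts, and it is counted for both. The promoters of H2-K1 and H2-D1 are alike, so their matches are not independent either. The kappaB motif was in 3 (B2m, H2-K1 and H2-D1), against 8.18%. The ISRE (GAAA, any 2 bases, GAAA) was in 2 (B2m and H2-T23), against 3.49%, and the gamma-activated site (TTCNNNGAA) in 1 (Psmb8), against 8.47%. The ISRE and kappaB matches of B2m do not overlap. Variant forms of these motifs were not searched, so a promoter without a match can still hold such an element. These matches describe letters in the reference and are not evidence of binding.

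The arrays had median intensities between 123.1 and 138.2, and the 2 arrays of a group had correlations of 0.986 to 0.997 over probe sets. The NOD DN2-3 pair was the least alike, with a median absolute difference of 0.25 log2 against 0.09 to 0.14 in the other pairs. Its replicate 1 had the lowest upper to lower quartile ratio, 6.82 against 9.32 in replicate 2. Many results that rest on this pair are given with and without each array. The B6g7 DN4 arrays had the next lowest ratios, 7.6 and 7.46, against 8.3 to 10.3 on the other arrays. The stage comparison in polyclonal B6g7 and the transgene comparison in B6g7 DN4 both use them. The part of these ratios in the results was not tested. Il2ra, which encodes the sorted marker CD25, had group means from 12.36 to 13.20 log2 in DN2-3 and from 9.10 to 10.38 in DN4. Probe sets of Y-linked genes read up to 5.98 log2 on female arrays, which gives the level of background.

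The members were all above that level on every array (the plot of levels by group). Levels are log2 of the deposited intensity, and levels of different probe sets have no common scale. The brightest was B2m, from 12.20 to 13.09. The H2-D1/H2-K1 set had the widest spread of group means, 1.35 log2 or 2.55-fold, followed by Tapbp with 1.15 (2.22-fold) and Tap2 with 0.96. Psmb8 had the narrowest, 0.42 log2 or 1.34-fold. The median spread over 10689 tested genes was 0.71, so 6 of the 10 probe sets varied more across the groups than the median gene, namely H2-D1/H2-K1, Tapbp, Tap2, Tap1 (0.79), Psmb9 (0.77) and, by little, H2-K1/H2-D1 (0.74).

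**Figure D1:**
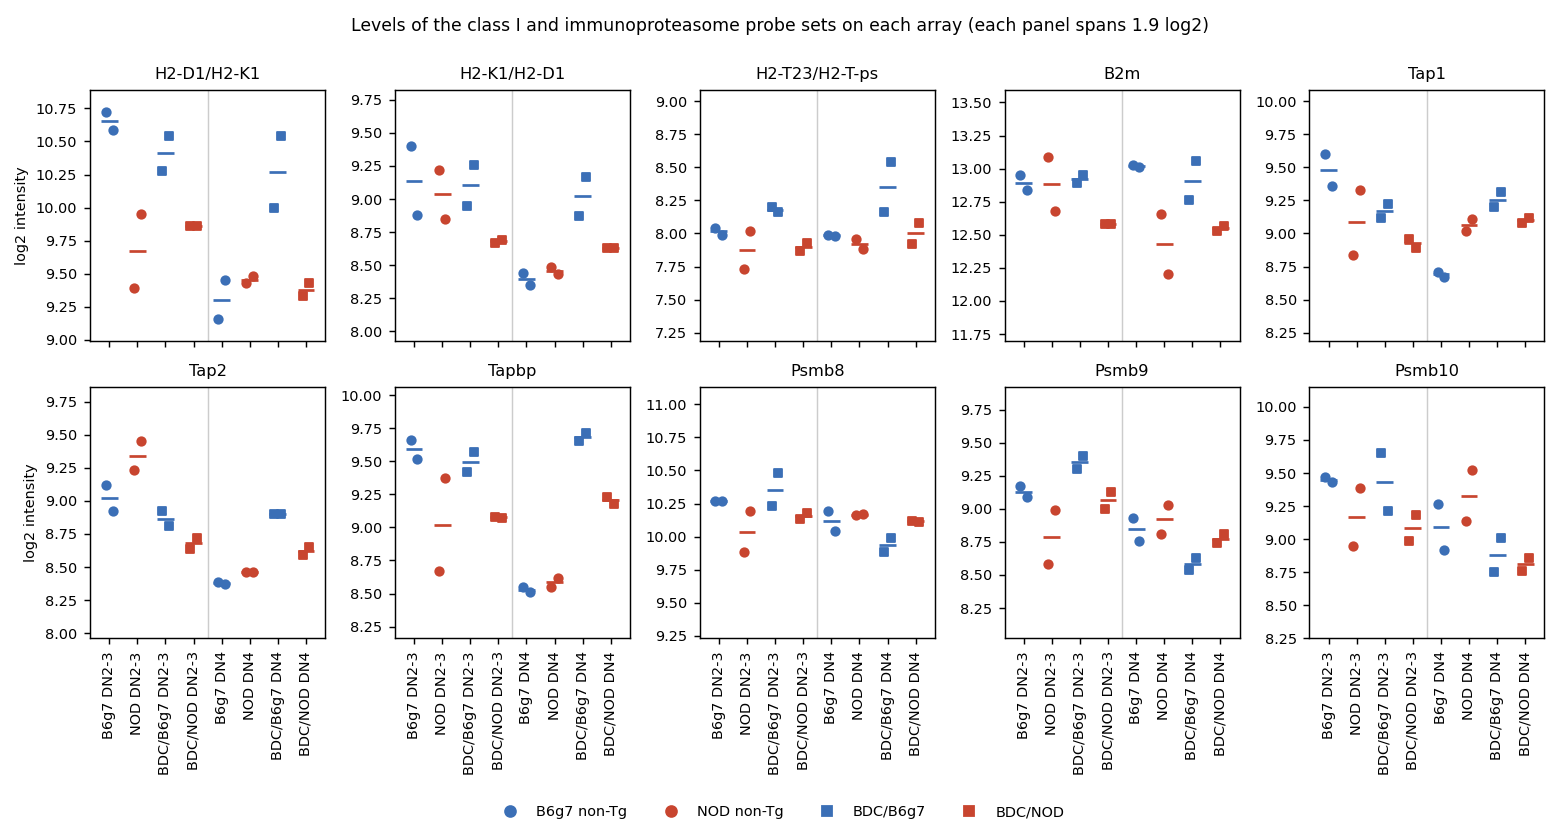
Log2 intensity of each of the 10 probe sets on each of the 16 arrays (points; bars mark the mean of 2 arrays), with DN2-3 groups left and DN4 groups right of the grey line and 1.9 log2 units in every panel. The H2-D1/H2-K1, H2-K1/H2-D1, Tap1, Tap2 and Tapbp sets were lowest in B6g7 DN4 or NOD DN4 and higher in BDC/B6g7 DN4, whereas Psmb9 was lowest in BDC/B6g7 DN4.

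Polyclonal B6g7 cells lost heavy chain and peptide-loading transcripts between DN2-3 and DN4. The H2-D1/H2-K1 set read 10.72 and 10.59 in B6g7 DN2-3 and 9.16 and 9.45 in B6g7 DN4. Tapbp read 9.66 and 9.52, then 8.55 and 8.51. Tap1 read 9.60 and 9.36, then 8.71 and 8.67, and Tap2 9.12 and 8.92, then 8.39 and 8.37. In each of these 4 the arrays of the stages were apart. How many of all genes had arrays apart was not counted, here or in the comparisons below. The fall was 1.35 ± 0.19 log2 for H2-D1/H2-K1 (standard error of the limma fit, as throughout; adjusted p = 0.000151), 1.06 ± 0.16 for Tapbp (adjusted p = 0.000227), 0.79 ± 0.14 for Tap1 (adjusted p = 0.000537) and 0.64 ± 0.10 for Tap2 (adjusted p = 0.000232). The H2-K1/H2-D1 set fell by 0.74 ± 0.17 (adjusted p = 0.00377), but its fall was 0.49 with adjusted p = 0.0594 without replicate 1 of B6g7 DN2-3. H2-T23/H2-T-ps (-0.03 ± 0.13) and B2m (0.12 ± 0.15) did not pass the test. Of the 7 genes with their own probe set 3 were called lower, beside 25% of all tested genes, and of the 3 shared probe sets 2 were, beside 22.3% of all tested probe sets. In these sorted populations, fewer cells with a high level and less RNA per cell cannot be told apart.

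In polyclonal NOD cells 4 probe sets were called lower in DN4. Tap2, the second transporter chain, went from 9.23 and 9.45 in NOD DN2-3 to 8.46 on both NOD DN4 arrays (-0.88 ± 0.10, adjusted p = 2.1e-05). Tap1 read 8.84 and 9.33 in NOD DN2-3 and 9.02 and 9.11 in NOD DN4, so its arrays overlapped and its difference was -0.02 ± 0.14. Tap1 was at -0.27 without replicate 1 of NOD DN2-3 and at 0.23 without replicate 2. B2m (-0.46 ± 0.15), Tapbp (-0.43 ± 0.16) and H2-K1/H2-D1 (-0.57 ± 0.17) were called lower. These 3 calls rest on few arrays. Without replicate 1 of NOD DN2-3, B2m was at -0.26 (adjusted p = 0.214) and H2-K1/H2-D1 at -0.39 (adjusted p = 0.115). B2m was also lost without replicate 2 of NOD DN4 (-0.23), and H2-K1/H2-D1 without either NOD DN4 array (-0.60 and -0.54). Tapbp lost its call when any of 15 of the 16 arrays was left out, with values from -0.46 to -0.08, the lowest size coming without replicate 2 of NOD DN2-3. Without replicate 1 of NOD DN2-3, Tapbp was at -0.78. Leaving out replicate 2 of NOD DN2-3 gave larger falls for B2m (-0.66) and H2-K1/H2-D1 (-0.75). H2-D1/H2-K1 (-0.21 ± 0.19) was at -0.50 (adjusted p = 0.0498) without replicate 1 of NOD DN2-3 and at 0.07 (adjusted p = 0.763) without replicate 2, so its sign turned. Of the 7 own probe sets 3 were called lower, beside 12.3% of genes, and 1 of the 3 shared sets, beside 11.4% of probe sets.

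In BDC cells no heavy chain or loading gene was called between the stages. In BDC/B6g7 the 3 heavy chain sets, B2m, Tap1, Tap2 and Tapbp differed between the stages by -0.14 to 0.18 log2, and none passed. The members that fell there were the 3 immunoproteasome genes. Psmb9 read 9.30 and 9.40 in BDC/B6g7 DN2-3 and 8.54 and 8.63 in BDC/B6g7 DN4, which did not overlap (-0.77 ± 0.13, adjusted p = 0.000246). Psmb8 fell by 0.42 ± 0.11 (adjusted p = 0.00725) and Psmb10 by 0.55 ± 0.19 (adjusted p = 0.025). The Psmb8 call was lost without replicate 2 of BDC/B6g7 DN2-3 (-0.29, adjusted p = 0.0899) or replicate 1 of BDC/B6g7 DN4 (-0.36, adjusted p = 0.061). The Psmb10 call was lost without replicate 1 of BDC/B6g7 DN2-3 (-0.33) or of BDC/B6g7 DN4 (-0.41). These 3 of the 7 own probe sets stood beside 30.4% of genes called lower. In BDC/NOD no member passed, beside 11.1% of genes called in either direction. The differences there ran from -0.48 ± 0.19 for H2-D1/H2-K1 to 0.18 ± 0.14 for Tap1, and without replicate 1 or 2 of NOD DN2-3 H2-D1/H2-K1 (-0.48, adjusted p = 0.036 and 0.0367) and Psmb9 (-0.29, adjusted p = 0.0407 and 0.0415) passed. Averaged over the 4 contexts, DN4 was lower than DN2-3 for Tap2 (-0.39 ± 0.05), Tapbp (-0.30 ± 0.08), Psmb9 (-0.30 ± 0.06), H2-D1/H2-K1 (-0.55 ± 0.09) and H2-K1/H2-D1 (-0.36 ± 0.08). That is 3 of the 7 own probe sets, beside 14.1% of genes, and 2 of the 3 shared sets, beside 12.8% of probe sets.

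The transgene was then compared within each stage and strain. In B6g7 DN4 cells the heavy chain and loading genes were higher with the BDC receptor. The Tapbp level was 9.65 and 9.71 in BDC/B6g7 DN4 against 8.55 and 8.51 in B6g7 DN4 (1.15 ± 0.16, adjusted p = 4.05e-05). For H2-D1/H2-K1 it was 10 and 10.54 against 9.16 and 9.45 (0.96 ± 0.19, adjusted p = 0.000744). Tap1 read 9.20 and 9.31 against 8.71 and 8.67 (0.56 ± 0.14, adjusted p = 0.00285), and Tap2 8.90 on both arrays against 8.39 and 8.37 (0.52 ± 0.10, adjusted p = 0.00045). None of these arrays overlapped, and the calls of these 4 held in every alternative run, including the females alone and each array left out in turn. H2-K1/H2-D1 (0.63 ± 0.17, adjusted p = 0.00592) and H2-T23/H2-T-ps (0.37 ± 0.13, adjusted p = 0.0222), which includes the gene of the nonclassical molecule Qa-1, were also called. Replicate 2 of BDC/B6g7 DN4 carried part of both: without it they were at 0.48 (adjusted p = 0.0672) and 0.18 (adjusted p = 0.265). H2-T23/H2-T-ps was also lost without replicate 1 (0.38, adjusted p = 0.0725) or replicate 2 (0.37, adjusted p = 0.0736) of B6g7 DN4. Of the own probe sets 3 of 7 were called higher, beside 30.1% of genes, and all 3 shared sets were, beside 27.2% of probe sets. B2m, at 12.76 and 13.06 against 13.03 and 13.01, did not pass (-0.11 ± 0.15).

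**Figure D2:**
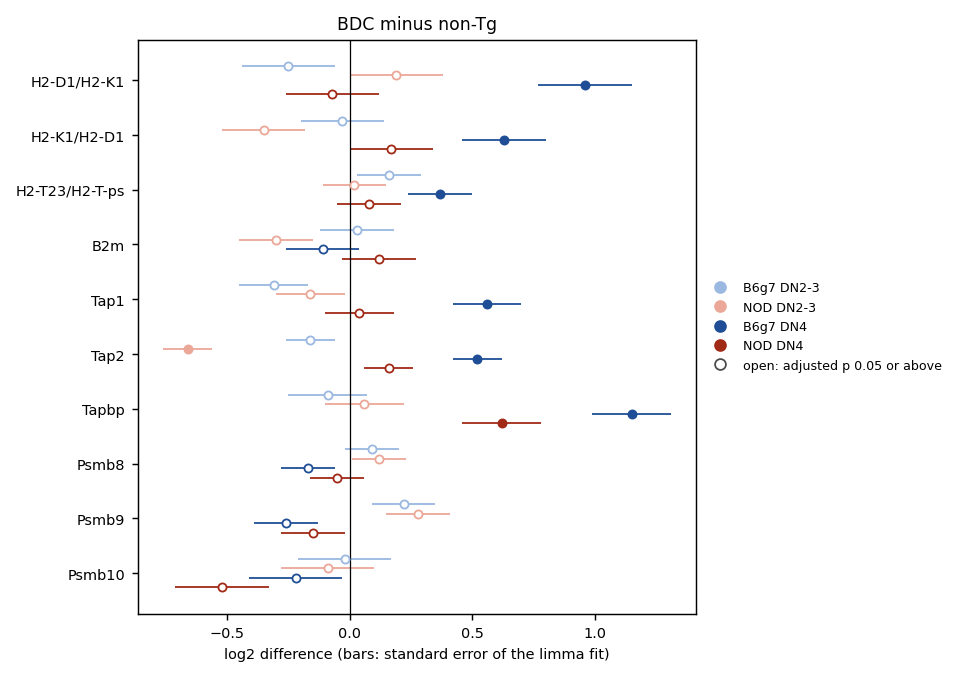
Difference between BDC and non-Tg arrays (log2, x axis) for each probe set, in each strain and stage, with bars of 1 standard error of the limma fit on groups of 2 arrays and open points where the adjusted p was 0.05 or above. In B6g7 DN4 the heavy chain, transporter and Tapbp sets lie right of 0, up to 1.15, while Psmb8, Psmb9 and Psmb10 lie left of 0 without passing.

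In NOD DN4 cells only Tapbp was called, with 9.23 and 9.18 in BDC/NOD DN4 against 8.55 and 8.62 in NOD DN4 (0.62 ± 0.16, adjusted p = 0.0125). Its arrays did not overlap, but the call was lost without replicate 1 of NOD DN4 (0.59, adjusted p = 0.0807), or without replicate 1 (0.60, adjusted p = 0.0824) or 2 (0.65, adjusted p = 0.0553) of BDC/NOD DN4. This 1 of 7 stood beside 10.6% of genes called higher. H2-D1/H2-K1 read 9.33 and 9.43 against 9.43 and 9.48 (-0.07 ± 0.19), and Tap1 9.08 and 9.12 against 9.02 and 9.11 (0.04 ± 0.14). Whether the DN4 difference was unequal in the strains was tested by the interaction of strain with transgene within DN4 (NOD minus B6g7), a test added after seeing the data. It passed for H2-D1/H2-K1 (-1.03 ± 0.27, adjusted p = 0.0174), 1 of the 3 shared sets beside 9.71% of probe sets called lower. That call was lost without replicate 1 of B6g7 DN4 (-0.89, adjusted p = 0.077), replicate 2 of NOD DN4 (-1.01, adjusted p = 0.0602), replicate 2 of BDC/B6g7 DN4 (-0.77, adjusted p = 0.0736), replicate 1 of BDC/NOD DN4 (-0.99, adjusted p = 0.0641) or the 4 male arrays (-1.25, adjusted p = 0.0963). None of the 7 own probe sets passed, beside 20.1% of genes in either direction: Tap1 was at -0.52 ± 0.19 (adjusted p = 0.0712), Tap2 at -0.36 ± 0.14 (adjusted p = 0.0856) and Tapbp at -0.53 ± 0.23 (adjusted p = 0.121). These 3 passed without either NOD DN2-3 array (adjusted p from 0.00288 to 0.0303).

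Averaged over both stages, the interaction of strain with transgene was -0.30 ± 0.19 for H2-D1/H2-K1, -0.19 ± 0.14 for Tap1 and -0.19 ± 0.16 for Tapbp, and none of these passed. Only Tap2 did (-0.43 ± 0.10, adjusted p = 0.0126), 1 of 7 beside 5.81% of genes called lower. Without replicate 1 of NOD DN2-3, Tap1 (-0.31, adjusted p = 0.0309) and Tapbp (-0.36, adjusted p = 0.00797) passed as well. Without replicate 2 they were at -0.06 and -0.01, and H2-K1/H2-D1 passed (-0.48, adjusted p = 0.0444).

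Averaged over both strains, the DN4 difference between BDC and non-Tg was 0.89 ± 0.11 for Tapbp (adjusted p = 1.78e-05), 0.34 ± 0.07 for Tap2 (adjusted p = 0.000767), 0.30 ± 0.10 for Tap1 (adjusted p = 0.0154), 0.44 ± 0.13 for H2-D1/H2-K1 (adjusted p = 0.0123), 0.40 ± 0.12 for H2-K1/H2-D1 (adjusted p = 0.0111) and 0.23 ± 0.09 for H2-T23/H2-T-ps (adjusted p = 0.0437). Psmb10 went the other way (-0.37 ± 0.13, adjusted p = 0.027). Thus 3 of the 7 own probe sets were called higher, beside 28.7% of genes, 1 lower, beside 30.8%, and all 3 shared sets higher, beside 25.8% of probe sets. Only the Tap2 and Tapbp calls held in every alternative. Without replicate 2 of BDC/B6g7 DN4, Tap1 was at 0.27 (adjusted p = 0.0545), H2-D1/H2-K1 at 0.31 (adjusted p = 0.0666), H2-K1/H2-D1 at 0.32 (adjusted p = 0.0548) and H2-T23/H2-T-ps at 0.13 (adjusted p = 0.207). Tap1 was also lost without replicate 1 of NOD DN4 (0.28) and H2-D1/H2-K1 without replicate 1 of B6g7 DN4 (0.37). H2-T23/H2-T-ps was lost when any of 12 of the 16 arrays was left out. Psmb10 was lost without replicate 1 of B6g7 DN4 (-0.28), replicate 2 of NOD DN4 (-0.27), replicate 1 of BDC/B6g7 DN4 (-0.30) or replicate 1 of BDC/NOD DN4 (-0.34).

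In DN2-3 cells the transgene went with fewer and partly opposite differences. Tap2 was lower in BDC cells of both strains together (-0.41 ± 0.07, adjusted p = 0.000347). In NOD it read 8.64 and 8.72 with the transgene against 9.23 and 9.45 without (-0.66 ± 0.10, adjusted p = 0.000313), while in B6g7 it read 8.92 and 8.81 against 9.12 and 8.92 (-0.16 ± 0.10, adjusted p = 0.233). Psmb9 was higher in BDC cells (0.25 ± 0.09, adjusted p = 0.0367), a call lost when any of 6 arrays was left out. These were 2 B6g7 DN2-3 arrays, 2 BDC/B6g7 DN2-3 arrays, replicate 2 of BDC/NOD DN2-3 and replicate 1 of NOD DN2-3, and the value was smallest without the last (0.15, adjusted p = 0.122). Averaged over strains these were 1 of 7 lower, beside 19.3% of genes, and 1 of 7 higher, beside 29.8%. In B6g7 alone no member passed, beside 29.4% of genes in either direction, and in NOD alone 1 of 7 was lower, beside 14.1%. Tap1 was at -0.23 ± 0.10 over both strains (adjusted p = 0.0574) and at -0.36 (adjusted p = 0.000773) without replicate 1 of NOD DN2-3, but at -0.11 (adjusted p = 0.191) without replicate 2. Tapbp was at -0.02 ± 0.11, at -0.19 (adjusted p = 0.0215) without replicate 1 and at 0.15 (adjusted p = 0.051) without replicate 2. B2m (-0.24), Psmb8 (0.18) and H2-K1/H2-D1 (-0.28) passed without replicate 2.

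The transgene therefore went with different changes at the 2 stages, and the interaction of transgene with stage tests this directly (the DN4 difference minus the DN2-3 difference, averaged over strains). It was 0.91 ± 0.16 for Tapbp (adjusted p = 0.000305), 0.75 ± 0.10 for Tap2 (adjusted p = 2.11e-05), 0.53 ± 0.14 for Tap1 (adjusted p = 0.00406), 0.59 ± 0.17 for H2-K1/H2-D1 (adjusted p = 0.00864) and 0.47 ± 0.19 for H2-D1/H2-K1 (adjusted p = 0.0494). The last call was lost when any of 12 of the 16 arrays was left out (adjusted p up to 0.128). For Psmb9 it had the opposite sign, -0.45 ± 0.13 (adjusted p = 0.00827), and Psmb8 (-0.22 ± 0.11) and Psmb10 (-0.31 ± 0.19) did not pass. Of the 7 own probe sets 3 were called higher, beside 26.3% of genes, and 1 lower, beside 31.5%. Of the shared sets 2 were higher, beside 24.2% of probe sets.

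The immunoproteasome genes were set beside their constitutive counterparts, each pair of which codes for subunits that take the same place in the particle. With the transgene, Psmb5, Psmb6 and Psmb7 were higher in DN2-3, by 0.55 ± 0.14 (adjusted p = 0.0047), 0.41 ± 0.07 (adjusted p = 0.00049) and 0.29 ± 0.06 (adjusted p = 0.00127). In DN4 they were lower: -0.37 ± 0.14 for Psmb5 (adjusted p = 0.0295), -0.38 ± 0.07 for Psmb6 (adjusted p = 0.000452) and -0.48 ± 0.06 for Psmb7 (adjusted p = 1.05e-05). The immunoproteasome members had smaller differences with the same order of stages: 0.10 ± 0.08 and -0.11 ± 0.08 for Psmb8, 0.25 ± 0.09 and -0.20 ± 0.09 for Psmb9 (adjusted p = 0.0689 in DN4), and -0.05 ± 0.13 and -0.37 ± 0.13 for Psmb10. Without replicate 1 or 2 of NOD DN2-3 the DN4 value of Psmb9 passed (-0.20, adjusted p = 0.0143 and 0.0146).

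**Figure D3:**
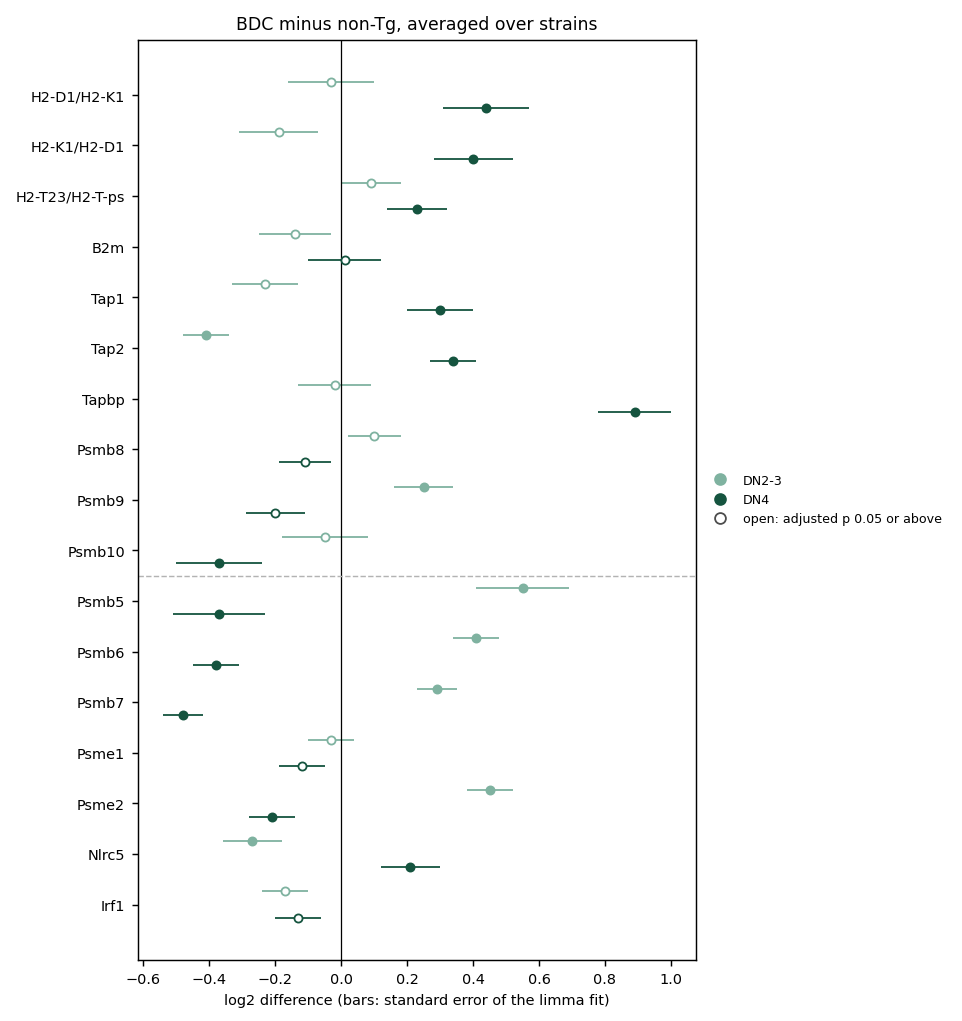
Difference between BDC and non-Tg cells averaged over strains (log2, x axis) in DN2-3 and DN4 for the members and, under the dashed line, constitutive proteasome subunits, the activator genes Psme1 and Psme2 and the regulators Nlrc5 and Irf1, with bars of 1 standard error. Psmb5, Psmb6 and Psmb7 lie right of 0 in DN2-3 and left of 0 in DN4, while the heavy chain, transporter and Tapbp sets lie right of 0 in DN4.

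Most other proteasome genes were called in the same directions as those subunits. Of 15 tested genes of the core particle and its assembly, 13 were higher in BDC DN2-3 cells and none lower, beside 29.8% and 19.3% of all genes. The median was 0.37 log2 against 0.05 over all tested genes. In BDC DN4 cells 13 were lower and none higher, beside 30.8% and 28.7% of all genes (median -0.39 against -0.03). Psmb3 (-0.60 ± 0.07) and Psmb2 (-0.54 ± 0.06) were among them. In BDC/B6g7 all 15 fell from DN2-3 to DN4, beside 30.4% of all genes, with a median of -0.70. Psmb11, the thymoproteasome subunit of cortical epithelium, was near background, with group means from 6.32 to 6.64, and was not tested. Of the 4 activator genes, Psme2, a chain of the interferon-inducible cap, was higher in BDC DN2-3 cells (0.45 ± 0.07, adjusted p = 0.000161) and lower in BDC DN4 cells (-0.21 ± 0.07, adjusted p = 0.0143). Its partner Psme1 did not pass in either (-0.03 ± 0.07 and -0.12 ± 0.07), and was lower in NOD (-0.29 ± 0.05, adjusted p = 0.000379). Psme3, of the nuclear cap, was higher in BDC DN2-3 (0.25 ± 0.07) and lower in BDC DN4 (-0.36 ± 0.07).

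Tap1 and Psmb9, the genes that share the 225 bases shown above, were then set side by side. Across the 8 group means, Tap1 and Psmb9 correlated with r = 0.175, and across the 16 arrays with r = 0.288. Psmb8 and Psmb9, separated in gene order by Tap1, correlated with r = 0.961 and 0.917. Tap1 correlated with Tapbp, elsewhere on the chromosome, with r = 0.802 and 0.813. H2-K1/H2-D1 and Tap2 had r = 0.868 over the group means. These coefficients describe few groups, which share arrays and normalization, and carry no test. The log2 difference of Tap1 minus Psmb9 on an array has no meaning as a ratio of transcripts, but its change between groups has. It lay from 0.26 to 0.43 on non-Tg DN2-3 arrays and from -0.24 to -0.04 on BDC DN2-3 arrays. In DN4 the order was turned, from -0.22 to 0.21 on non-Tg arrays and from 0.31 to 0.68 on BDC arrays, and BDC and non-Tg arrays did not overlap at either stage.

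**Figure D4:**
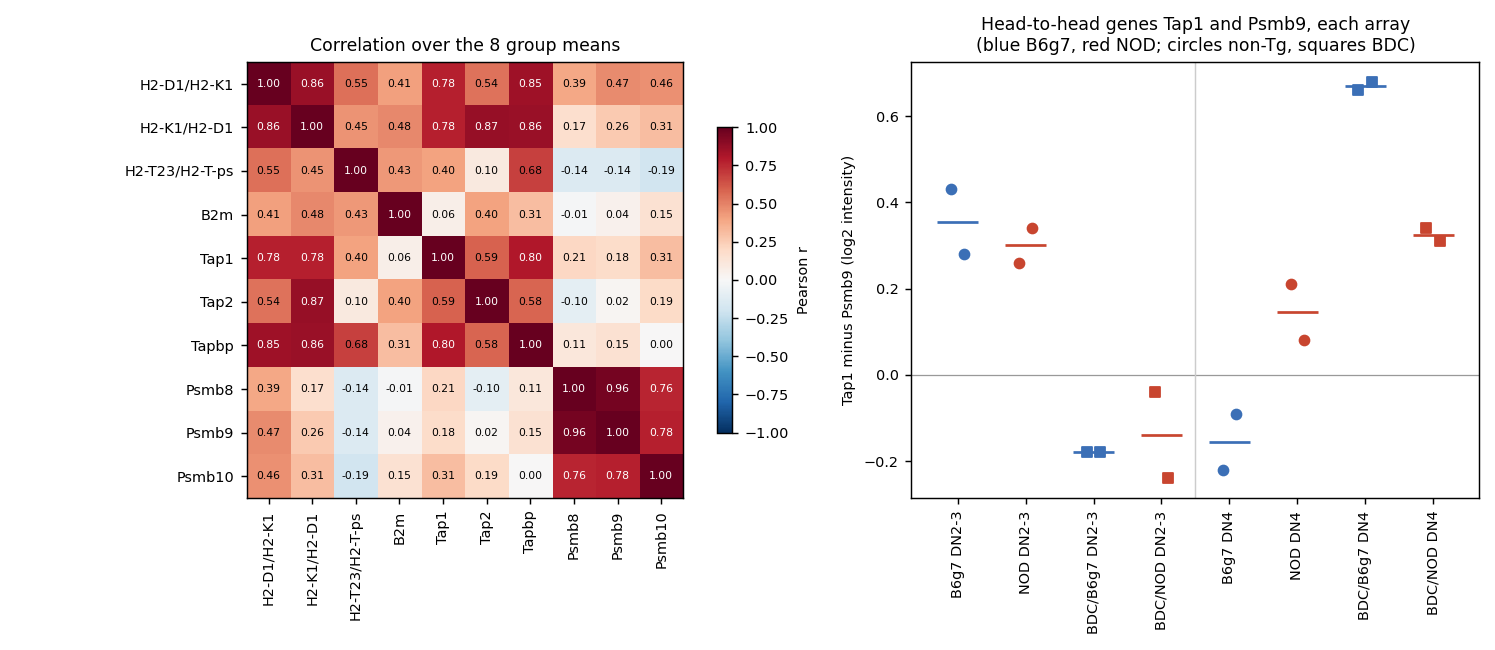
Left, Pearson correlation of the 10 probe sets over 8 group means (colour scale from -1 to 1); right, Tap1 minus Psmb9 on each array (log2, points; bars mark the mean of 2 arrays), blue for B6g7, red for NOD, circles for non-Tg and squares for BDC. Psmb8, Psmb9 and Psmb10 form a block apart from Tap1, Tapbp and the H2-D1 and H2-K1 sets, and the BDC arrays lie below the non-Tg arrays in DN2-3 and above them in DN4.

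Strain was compared next, although both strains share the MHC haplotype. B2m and Psmb10 lie outside it, and whether their alleles differ between the strains was not tested. Averaged over the 4 contexts, NOD cells had lower H2-D1/H2-K1 (-0.57 ± 0.09, adjusted p = 0.000385), Tapbp (-0.35 ± 0.08, adjusted p = 0.00332), B2m (-0.32 ± 0.08, adjusted p = 0.00428) and H2-T23/H2-T-ps (-0.21 ± 0.06, adjusted p = 0.0175). These were 2 of 7 own probe sets, beside 14.9% of genes called lower, and 2 of 3 shared sets, beside 14.3% of probe sets. No member was called higher. Tap1 (-0.10 ± 0.07), Tap2 (-0.02 ± 0.05), Psmb8 (-0.05 ± 0.06), Psmb9 (-0.09 ± 0.06) and Psmb10 (-0.11 ± 0.09) did not pass. With the 4 male arrays left out, only H2-D1/H2-K1 of these kept its call; Tapbp was at -0.39 (adjusted p = 0.0573), B2m at -0.36 (adjusted p = 0.0514) and H2-T23/H2-T-ps at -0.22 (adjusted p = 0.0671).

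**Figure D5:**
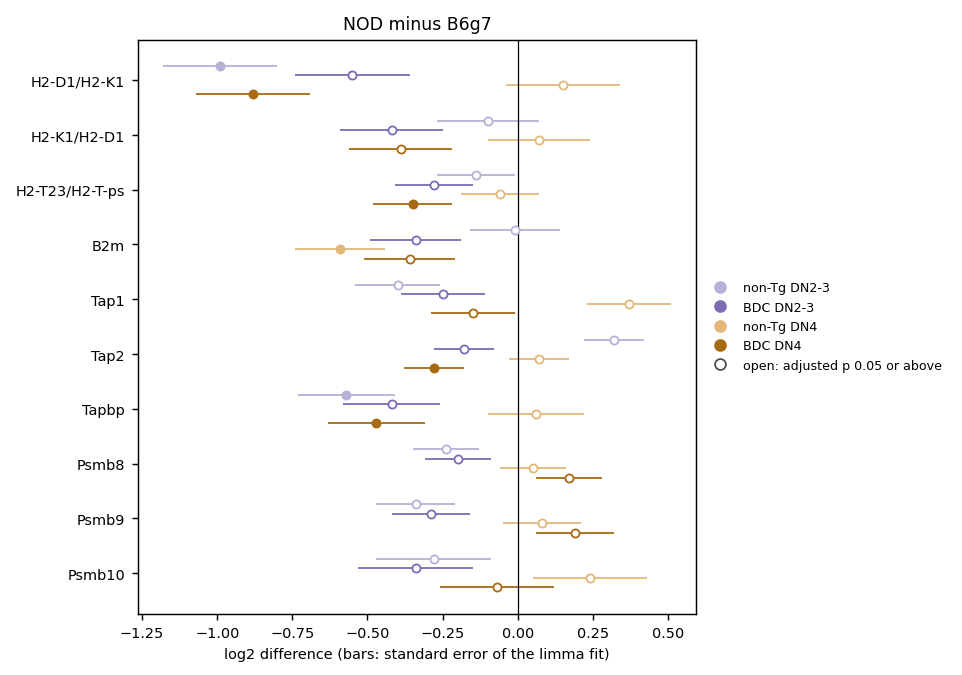
Difference between NOD and B6g7 arrays (log2, x axis) for each probe set in each genotype and stage, with bars of 1 standard error of the limma fit on groups of 2 arrays and open points where the adjusted p was 0.05 or above. In BDC DN2-3 cells all 10 differences lie left of 0 without passing, and in non-Tg DN4 cells only B2m was called.

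The strain differences were then taken by context. For H2-D1/H2-K1, NOD was lower in non-Tg DN2-3 (9.39 and 9.95 against 10.72 and 10.59; -0.99 ± 0.19, adjusted p = 0.00497) and in BDC DN4 (9.33 and 9.43 against 10 and 10.54; -0.88 ± 0.19, adjusted p = 0.0023). The arrays did not overlap in either. In non-Tg DN4, where both strains were low, the difference was 0.15 ± 0.19. The non-Tg DN2-3 value was -0.70 (adjusted p = 0.0276) without replicate 1 and -1.27 (adjusted p = 0.000133) without replicate 2 of NOD DN2-3, and the call was lost without replicate 1 of B6g7 DN2-3 (-0.92, adjusted p = 0.062). Tapbp was called lower in non-Tg DN2-3 (-0.57 ± 0.16, adjusted p = 0.0389), but lost its call when any of 15 of the 16 arrays was left out, and was at -0.23 (adjusted p = 0.224) without replicate 1 of NOD DN2-3 and at -0.92 (adjusted p = 1.21e-05) without replicate 2. In BDC DN4, Tapbp (-0.47 ± 0.16, adjusted p = 0.0322), Tap2 (-0.28 ± 0.10, adjusted p = 0.033) and H2-T23/H2-T-ps (-0.35 ± 0.13, adjusted p = 0.0405) were also lower in NOD. Tapbp and Tap2 lost their calls when any array of these 2 groups was left out, with values from -0.50 to -0.44 and from -0.31 to -0.25. H2-T23/H2-T-ps lost its call without any of 13 arrays and was at -0.16 without replicate 2 of BDC/B6g7 DN4.

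B2m differed most between the strains in non-Tg DN4, where it read 12.66 and 12.20 in NOD against 13.03 and 13.01 in B6g7 (-0.59 ± 0.15, adjusted p = 0.0216). The median over all tested genes was 0.13 in that comparison, 0.02 after quantile normalization again and 0.22 after centring each array, so the B2m difference lay further below the other genes. The call was lost without replicate 2 of NOD DN4 (-0.36, adjusted p = 0.227), or without replicate 1 (-0.58, adjusted p = 0.107) or 2 (-0.60, adjusted p = 0.0596) of B6g7 DN4. In BDC/NOD, B2m read 12.58 on both DN2-3 arrays and 12.53 and 12.57 in DN4, below both BDC/B6g7 arrays at each stage, and neither difference passed (-0.34 ± 0.15 and -0.36 ± 0.15). By context, members called lower were 1 of 7 own and 1 of 3 shared sets in non-Tg DN2-3, beside 5.58% of genes and 5.46% of probe sets. In non-Tg DN4 it was 1 of 7, beside 4.75%. In BDC DN4 it was 2 of 7 and 2 of 3, beside 15.3% and 14.2%. In BDC DN2-3 none was called in either direction, beside 9.19% of genes. There all 10 probe sets read lower in NOD, by 0.18 to 0.55 log2, with a median of -0.32 against 0.01 over all tested genes. Without replicate 1 or 2 of NOD DN2-3, Tapbp (-0.42) and H2-D1/H2-K1 (-0.55) passed.

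Whether the strains differed in the change with stage was tested too. The interaction of strain with stage, the DN4 minus DN2-3 change in NOD minus that in B6g7, was 0.43 ± 0.14 for Tap1 (adjusted p = 0.0373) and 0.45 ± 0.13 for Psmb9 (adjusted p = 0.0276), 2 of 7 beside 17.6% of genes called higher. In this comparison too the median of all genes was 0.13. After quantile normalization again both values fell to 0.24 and neither passed. The Tap1 call was lost when any of 13 of the 16 arrays was left out and the Psmb9 call with any of 7. Without replicate 2 of NOD DN2-3, Tapbp (0.47), Psmb8 (0.41), Psmb10 (0.50), H2-D1/H2-K1 (0.54) and B2m (-0.40) passed too.

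Leaving out either NOD DN2-3 array narrowed the spread shared by all groups, and further members passed. In comparisons without that group the values stayed the same and both omissions gave a call: Psmb9 for stage in polyclonal B6g7 (-0.29, adjusted p = 0.0191 and 0.0195 without replicate 1 and 2), Tap1 for the transgene in B6g7 DN2-3 (-0.31, 0.0122 and 0.0125), Psmb9 in B6g7 DN4 (-0.26, 0.0242 and 0.0246), Psmb10 in NOD DN4 (-0.52, 0.0168 and 0.0171), and for strain B2m (-0.36, 0.0261 and 0.0265) and H2-K1/H2-D1 (-0.39, 0.0395 and 0.0402) in BDC DN4 and Tap1 in non-Tg DN4 (0.37, 0.00511 and 0.00522).

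In comparisons that use the NOD DN2-3 group the 2 omissions gave different calls, and with both arrays none of those named here was called. Tap1, for the transgene in NOD DN2-3, was at -0.41 (adjusted p = 0.0134) without replicate 1 and at 0.09 (adjusted p = 0.507) without replicate 2. Tapbp there was at -0.29 (adjusted p = 0.0414) and 0.40 (adjusted p = 0.00363), so its sign turned. Without replicate 2, B2m (-0.51), Psmb8 (0.28), Psmb9 (0.49), H2-D1/H2-K1 (0.48) and H2-K1/H2-D1 (-0.54) passed as well. For strain in non-Tg DN2-3, Tap2 passed without replicate 1 (0.43, adjusted p = 0.0156), and Tap1 (-0.65), Psmb8 (-0.39), Psmb9 (-0.55) and Psmb10 (-0.49) without replicate 2. For strain over the 4 contexts, H2-K1/H2-D1 passed without replicate 1 (-0.26), and Tap1 (-0.17) and Psmb9 (-0.14) without replicate 2. For stage over the 4 contexts, Tap1 (-0.20), Psmb8 (-0.16) and Psmb10 (-0.31) passed without replicate 1, against -0.08, -0.08 and -0.20 without replicate 2. For stage in NOD, Psmb8 (0.28) and Psmb9 (0.34) passed without replicate 2.

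Leaving out the 4 male arrays, which are replicate 1 of each BDC group, ended 29 of the 55 calls on members, among them the following. For the transgene these were, in DN4 over both strains, Tap1 (0.34, adjusted p = 0.0997), H2-K1/H2-D1 (0.48, adjusted p = 0.0501) and Psmb10 (-0.28, adjusted p = 0.225), and in NOD DN4 Tapbp (0.60, adjusted p = 0.215). The strain by transgene value of Tap2 was then -0.37 (adjusted p = 0.326). For transgene by stage, H2-D1/H2-K1 was at 0.56 (adjusted p = 0.0935), Tap1 at 0.56 (adjusted p = 0.0615), Psmb9 at -0.47 (adjusted p = 0.088) and H2-K1/H2-D1 at 0.59 (adjusted p = 0.0792). For stage over the 4 contexts, Tapbp was at -0.31 (adjusted p = 0.17), Psmb9 at -0.31 (adjusted p = 0.0871) and H2-K1/H2-D1 at -0.36 (adjusted p = 0.098), and in BDC/B6g7 Psmb8 was at -0.49 (adjusted p = 0.0896) and Psmb10 at -0.19 (adjusted p = 0.667).

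The helpers of class I loading are chaperones and a trimming peptidase of the endoplasmic reticulum. Of 7 tested, 5 were higher and 1 lower in BDC DN2-3 cells, beside 29.8% and 19.3% of all genes, and 3 were higher and none lower in BDC DN4 cells, beside 28.7% and 30.8%. Calr, the calreticulin gene, was higher in BDC DN2-3 (0.61 ± 0.12), and Hspa5, the main chaperone of the endoplasmic reticulum, in both stages (0.60 ± 0.11 and 0.73 ± 0.11). Tapbpl, which encodes the peptide editor related to tapasin, was lower in BDC DN2-3 (-0.33 ± 0.09, adjusted p = 0.00699), higher in BDC DN4 (0.58 ± 0.09, adjusted p = 6.84e-05) and lower in NOD (-0.46 ± 0.06, adjusted p = 6.16e-05). Erap1, the trimming peptidase, was higher in BDC DN4 (0.26 ± 0.07). After quantile normalization again, 2 rather than 5 of the helpers passed as higher in BDC DN2-3.

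Other class I and class I-like genes did not move as a block. Of 23 listed, 16 had a probe set and 9 were tested. In BDC DN4 cells 4 were higher and 3 lower, beside 28.7% and 30.8% of all genes. H2-Q2 rose with the transgene in DN2-3 (1.92 ± 0.12) and in DN4 (1.17 ± 0.12), with group means from 7.47 in B6g7 DN2-3 to 10.07 in BDC/NOD DN4. H2-T10, which codes for a ligand of some gamma-delta T cell receptors, was lower in BDC DN4 cells (-1.22 ± 0.15) and higher in NOD (0.90 ± 0.11), and its lowest group was BDC/B6g7 DN4 at 8.57. The MR1 and CD1d genes, which present vitamin metabolites and lipids, were lower in BDC DN2-3: Mr1 by -0.79 ± 0.08, Cd1d1 by -0.64 ± 0.06 and Cd1d2 by -0.60 ± 0.07. These genes have close relatives, and their probe sets can take each other's transcripts.

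Among the regulators, Nlrc5 was lower in BDC DN2-3 (-0.27 ± 0.09, adjusted p = 0.0197) and higher in BDC DN4 (0.21 ± 0.09, adjusted p = 0.0499), and its interaction of transgene with stage was 0.48 ± 0.12 (adjusted p = 0.00412). Its enhanceosome partner Rfx5 fell in polyclonal B6g7 between the stages (-0.56 ± 0.14, adjusted p = 0.00651) and was higher in BDC/B6g7 DN4 than in B6g7 DN4 (0.57 ± 0.14, adjusted p = 0.00338); it was named after its values were seen. Irf1, an activator of class I and immunoproteasome genes, was not called for the transgene (-0.17 ± 0.07 in DN2-3 and -0.13 ± 0.07 in DN4), and was higher in NOD (0.27 ± 0.05, adjusted p = 0.000738). Of 24 tested regulators, 16 were higher and 3 lower in BDC DN4 cells (median 0.43 log2 against -0.03 over all genes), beside 28.7% and 30.8% of all genes. In BDC DN2-3 cells 2 were higher and 5 lower, beside 29.8% and 19.3%, so the share called lower was near that of all genes. In NOD 2 were higher and 11 lower, beside 26.8% and 14.9%. The receptor chain genes Ifngr2 (1.49 ± 0.09) and Ifnar1 (1.07 ± 0.07) and the kinase gene Jak1 (1.29 ± 0.08) had the largest differences in BDC DN4. In DN2-3 a further quantile normalization gave 3 higher and 10 lower, and centring each array gave 6 higher and 4 lower.

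Of 35 tested interferon response genes, 23 were lower and none higher in BDC DN2-3 cells (median -0.60 log2), beside 19.3% and 29.8% of all genes, among them Ifih1 (-1.15 ± 0.09) and Zbp1 (-1.08 ± 0.09), both sensors of nucleic acids. In BDC DN4 cells 16 were higher, 5 lower and the others not called (median 0.23), beside 28.7% and 30.8%, with Sp100 (1.49 ± 0.07), Usp18 (1.45 ± 0.12) and Irf7 (1.19 ± 0.12) among the higher. From DN2-3 to DN4, 22 fell and 1 rose in polyclonal B6g7, beside 25% and 17.8% of all genes, and 17 fell and 1 rose in polyclonal NOD, beside 12.3% and 26.3%. In BDC/B6g7 4 fell and 18 rose, beside 30.4% and 20.4%, and in BDC/NOD none fell and 4 rose, beside 7.67% of genes called higher. In NOD against B6g7, 16 were lower and 5 higher, beside 14.9% and 26.8%. Zbp1 had group means of 8.24 in B6g7 DN2-3, 7.52 in B6g7 DN4, 7.16 in BDC/B6g7 DN2-3 and 8.76 in BDC/B6g7 DN4. The stage and transgene comparisons share groups of arrays, so these counts are not independent of each other.

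Markers of other cells moved with some of the same groups. Of 9 listed gamma-delta T cell genes 5 were measured, and their summed intensity was 801 to 1114 on non-Tg arrays, 3825 to 6241 on BDC DN2-3 arrays, 7915 to 8404 in BDC/NOD DN4 and 13680 to 14700 in BDC/B6g7 DN4. Il23r was at background on every array. Of 10 mature T cell genes 8 were measured, summed 6604 to 7535 in BDC/B6g7 DN4 and 2915 to 5021 elsewhere. In BDC DN4 cells S1pr1, needed to leave the thymus, was higher by 3.63 ± 0.09 log2 and Klf2 by 1.58 ± 0.10, while Cd8b1 was lower (-1.67 ± 0.16). Of 10 class II genes 8 were measured, summed 1447 to 1538 in BDC/B6g7 DN4 and 1010 to 1209 elsewhere, with H2-Aa at background throughout. H2-Ob (1.39 ± 0.08) and H2-Oa (0.93 ± 0.08) were higher in BDC DN4 cells, and H2-DMa was lower (-0.37 ± 0.06). Of 8 NK and cytotoxic genes, summed 5008 to 7127 in BDC DN4, 1494 to 2232 in non-Tg DN4 and 2937 to 6725 in DN2-3, Ncr1, Klrb1c and Klra8 were at background on every array. Among 7 measured B cell genes Cd79a, Ms4a1 and Ebf1 were at background throughout (list sum 686 to 1125), as were Csf1r, Itgam and Cd14 of 11 myeloid and dendritic genes (672 to 1149) and Krt5 of 8 stromal genes (1317 to 2444). The stromal sum was highest in BDC/B6g7 DN4 (2426 to 2444), and Pecam1 of that list was higher in BDC DN4 cells (1.33 ± 0.09). The 3 measured erythroid genes summed to 214 to 295. Of the myeloid genes, Lyz2 was lower in BDC DN2-3 cells (-1.67 ± 0.15, adjusted p = 2.88e-06) and in DN4 (-1.11 ± 0.11 over the 4 contexts), Fcer1g was lower in both (-0.40 ± 0.15 and -0.57 ± 0.11) and Tyrobp in DN4 (-0.41 ± 0.07). Cd79b, of the B cell list, was lower in BDC DN2-3 (-0.73 ± 0.07), in DN4 (-0.38 ± 0.05) and in NOD (-0.23 ± 0.05) and higher in BDC DN4 (0.20 ± 0.07), and Epcam, an epithelial gene, was lower in BDC DN2-3 (-0.53 ± 0.08), DN4 (-0.77 ± 0.06) and NOD (-0.35 ± 0.06). BDC/B6g7 DN4, where heavy chain and loading sets were above B6g7 DN4, had the highest gamma-delta and mature T cell sums. BDC/NOD DN4 had a high gamma-delta sum, and its H2-D1/H2-K1 and Tap1 levels were close to those of NOD DN4. Tapbp was called higher in BDC/NOD DN4 than in NOD DN4 (9.21 against 8.58). Tap2 (8.62 against 8.46) and H2-K1/H2-D1 (8.63 against 8.46) read higher without passing. The mature T cell sum of BDC/NOD DN4 (4050 to 4058) was below that of B6g7 DN4 (4755 to 5021). The mean log2 of the same genes had the opposite order (8.83 to 8.85 against 8.52 to 8.63). Cd8b1 (9.16 against 11.08), Cd8a and Il7r were lower in BDC/NOD DN4 than in B6g7 DN4. S1pr1 (9.72 against 6.98), Ccr7 (9.28 against 8.02), Klf2, Cd4 and Cd6 were higher. The part of these cells in the results was not tested.

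Likeness to the 7 genes with a probe set of their own was described over the 8 group means. The shared heavy chain sets were not part of this mean. The genes whose pattern was most like the mean of the 7 centred probe sets were Cox14 (r = 0.971), Lrrfip1 (r = 0.968), Mprip (r = 0.954), Rnf130 (r = 0.946) and Phldb3 (r = 0.945). With 8 points and 10689 genes searched, values of this size describe these groups only.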

How the data were processed

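Each of 16 sorted thymocyte samples was run on 1 Affymetrix Mouse Gene 1.0 ST array. Intensities were deposited on a linear scale, from 5.82 to 21466, made by the authors with RMA in Affymetrix Power Tools, per the submitters' processing notes; versions, and whether the arrays shared a scan day, are not given in the sources used here. RMA brings arrays close in distribution, so a shift common to most genes can be largely removed. The deposited arrays were not fully alike, with quartile ratios from 6.82 to 10.3. A median difference of 0.13 log2 over all tested genes remained for NOD minus B6g7 in non-Tg DN4. Detection calls are not part of the deposited values. Precision is limited by the number of arrays. No column of another sample was present (0 columns).

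Intensities were turned into log2 values with no pseudocount. Of 25108 probe sets, 21157 had 1 gene symbol, 1341 several and 2610 none in the probe annotation, and the brightest set of each of 19531 genes was kept. Genes whose highest group mean reached 7.05 log2 (132.9 linear) were tested, which left 10689. The test was limma 3.58.1 in R 4.3.3 with lmFit on 8 group means and eBayes (8 residual and 5.06 prior degrees of freedom), two-sided, with Benjamini-Hochberg adjustment over all genes of a comparison at 0.05; "called", "rose" and "fell" refer to this. The shared probe sets were tested in the same fit across every probe set, of which 13711 passed the filter; this fit was chosen after seeing the data. The procedure was tested on simulated data.

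All 10 members, Psmb5, Psmb6, Psmb7, Psmb11, Nlrc5 and Irf1 are named, with up to 4 called genes of each list having the largest difference in a main comparison. The 5 genes most like the 7 members with a probe set of their own are named too. Members and lists were chosen with earlier results of these data known, so no count over them is independent support. Of 216 list entries 185 matched a probe set. Alternatives dropped the filter, tested all named probe sets, repeated quantile normalization, centred the arrays, added a replicate block or sex, weighted arrays, used eBayes with trend and robust settings, fitted the compared arrays alone, and left out the male arrays or each array in turn. Replicate numbers were shared between groups, but deviations of same-numbered arrays correlated over 0.1 in only 12 of 28 pairs of groups, so the numbers were not used as pairs; in the BDC groups replicate 1 is male and replicate 2 female. Promoter sequences are RefSeq's for GRCm38.p6, read with Python 3.11.15 and pandas 2.3.3; figures used matplotlib 3.10.9. Protein sequences were not analysed here.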

Additional observations from a re-analysis of the deposited data

Results flagged for a closer look

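For 6 probe sets the effect of the transgene differed between DN4 and DN2-3 by a test of the difference itself: Tap1 (0.53), Tap2 (0.75), Tapbp (0.91), the H2-D1/H2-K1 probe set (0.47), the H2-K1/H2-D1 probe set (0.59) and, with the opposite sign, Psmb9 (-0.45), all in log2. Over all genes 26.3% were called higher and 31.5% lower there, and 24.2% of probe sets higher. Only the Tap2 and Tapbp calls held in every alternative, and the H2-D1/H2-K1 call was lost without any of 12 arrays. Strain by transgene passed for Tap2 (-0.43, NOD minus B6g7), beside 5.81% of genes called lower, but not without the 4 male arrays. Within DN4 it passed for H2-D1/H2-K1 (-1.03), beside 9.71% of probe sets called lower. That test was added after seeing the data, and the call was lost without any of 4 arrays. Strain by stage passed for Tap1 (0.43) and Psmb9 (0.45), beside 17.6% of genes called higher. Both values fell to 0.24 after quantile normalization again and neither passed. The Tap1 call was lost without any of 13 arrays and the Psmb9 call without any of 7. Standard errors and adjusted p-values are given with the comparisons above. Groups of 2 arrays are too small to test for outlying samples.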

How the results depend on the processing

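Of 55 called member differences, 19 kept direction and call in every alternative. These were H2-D1/H2-K1 for stage in B6g7 and averaged, strain averaged and in BDC DN4, and the transgene in B6g7 DN4, Tap2 for stage in B6g7, NOD and averaged, and the transgene in DN2-3, DN4 and B6g7 DN4, Tapbp and Tap1 for stage in B6g7 and the transgene in B6g7 DN4, Tapbp for the transgene in DN4, Tap2 and Tapbp for transgene by stage, and Psmb9 for stage in BDC/B6g7. One difference reversed: Tapbp, BDC minus non-Tg in NOD DN2-3, was 0.06, but -0.29 without replicate 1 of NOD DN2-3 and 0.40 without replicate 2. The counts below are probe sets called out of 10. The shares of all genes called under the same settings are not given here. A changed count is therefore no result about the members as such.

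Without a filter there were 1 for strain in non-Tg DN2-3, 2 for strain in BDC DN4, 1 for the transgene in DN2-3 and 1 for strain by stage. After quantile normalization again there were 2 for the transgene in B6g7 DN2-3, 2 in NOD DN4 and 1 for strain by stage. With arrays centred there were 2 for strain in non-Tg DN4 and 2 for stage in NOD. With sex as a term there was 1 for strain in non-Tg DN2-3. Without male arrays, which leaves BDC groups with 1 array assumed to vary like the others, there were 1, 1, 0 and 1 for strain (averaged, non-Tg DN2-3, non-Tg DN4, BDC DN4), 1, 4 and 0 for the transgene (DN2-3, DN4, NOD DN4), 2, 1 and 1 for stage (averaged, NOD, BDC/B6g7), and 0, 0 and 2 for the interactions (strain by transgene, strain by stage, transgene by stage). For strain by transgene in DN4 there were 0 without male arrays, 4 with array weights, 5 with the compared arrays alone and 0 to 4 on leaving out each array. With array weights there were 0, 2 and 2 for strain (non-Tg DN2-3, BDC DN2-3, non-Tg DN4), 1, 1 and 2 for the transgene (DN2-3, B6g7 DN2-3, NOD DN4), and 1 and 2 for stage (NOD, BDC/NOD). With the compared arrays alone there were 0, 4 and 2 for strain (non-Tg DN2-3, BDC DN2-3, non-Tg DN4), 1, 1, 0 and 2 for the transgene (DN2-3, B6g7 DN2-3, NOD DN2-3, NOD DN4), and 1 and 3 for stage (NOD, BDC/NOD). The causes were not tested.

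Leaving out each array gave 4 to 6, 0 to 6, 0 to 2, 0 to 2 and 1 to 6 for strain (averaged, non-Tg DN2-3, BDC DN2-3, non-Tg DN4, BDC DN4). It gave 1 to 5, 3 to 8, 0 to 1, 1 to 7, 4 to 7 and 0 to 2 for the transgene (DN2-3, DN4, B6g7 DN2-3, NOD DN2-3, B6g7 DN4, NOD DN4), 5 to 8, 4 to 6, 1 to 5, 2 to 3 and 0 to 2 for stage (averaged, B6g7, NOD, BDC/B6g7, BDC/NOD), and 1 to 3, 0 to 7 and 5 to 7 for the interactions.

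Same-numbered arrays correlated in their deviations with r from -0.254 to 0.585 over 28 pairs of groups, 12 over 0.1, so the numbers were not taken as pairs. In the BDC groups the number also follows sex (replicate 1 male, replicate 2 female). With the replicate block, 1 probe set rather than 0 was called for strain in BDC DN2-3, and no other count moved by over 1.5 times.

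Groups of 2 arrays give wide intervals, the shared probe sets cannot be split between genes, and sex differs with the transgene.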
